A study of Macaca mulatta with 81 samples.

Results

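The tumour necrosis factor (TNF) superfamily comprises ligands such as CD70, FASLG and TNFSF10, their receptors, and the TRAF adaptor proteins that connect those receptors to signalling inside the cell. The genes described here were chosen by symbol: TNF, the TNFSF, TNFRSF and TNFAIP genes, TRAF1 to TRAF7, and LTA, LTB, FAS, FASLG, CD27, CD70, CD40LG and CD40. Of 14133 genes that had a probe set naming 1 gene alone, 42 met that rule, each represented by its brightest probe set over all 81 arrays. A level in this text is the deposited log2 signal of that probe set, and 39 of the 42 genes lay above a level of 4.65 (the 40th percentile over the table) on 2 arrays or more and were tested. TNFRSF11B, TNFRSF17 and TNFSF15 lay above it in 0 arrays and are described by level only. CD27, LTA, TRAF2, TNFRSF1A, TNFRSF8 and TNFRSF9 were not analysed here. The array's gene table paired CD27 only with a probe set that also names another gene.

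The arrays measured RNA of CD3 T cells sorted from the blood of rhesus macaques (Macaca mulatta) after haematopoietic cell transplantation (HCT). There were 47 arrays of 27 transplanted animals and 34 arrays of untransplanted animals, with 50 animals in all because 11 gave both. Transplant groups carry the day after transplant (D14, D30, D36) or F, taken to mean a final sample whose day the labels do not give. The allogeneic groups that received prophylaxis were FR104.Siro.D14 and FR104.Siro.F (4 arrays each), FR104.D14 and FR104.F (3 each), Bela.Siro.D14 and Bela.Siro.D30 (3 each), Bela.Siro.F (2), Bela.F (3), Tac.Mtx.D14 (3), Tac.Mtx.D30 (2), Tac.Mtx.F (3) and Siro.F (4). NoRx.F (4 arrays) held allogeneic recipients without prophylaxis, Auto.D14 and Auto.D36 (3 arrays each, the same 3 animals) held recipients of autologous grafts without prophylaxis, and Healthy.Control held the 34 untransplanted animals. The labels do not spell out the agents. Siro is taken to be sirolimus, an inhibitor of the kinase mTOR, Tac.Mtx tacrolimus with methotrexate, Bela belatacept, which is built from CTLA4 and keeps CD28 from its ligands, and FR104 an antibody fragment against CD28 itself. In FR104.Siro.D14 the labels give day 14 for 2 animals, day 22 for animal 29 and day 34 for animal 27. The D14 and F samples of a regimen came from overlapping sets of animals. Bulk RNA cannot tell fewer cells of a type from less RNA per cell.

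Members of the family work in pairs of a ligand, usually carried on the surface of one cell, and a receptor on another. The costimulatory pairs, among them CD70 with CD27, TNFSF4 (OX40L) with TNFRSF4 (OX40), TNFSF18 (GITRL) with TNFRSF18 (GITR) and CD40LG with CD40, prolong the division and survival of activated lymphocytes. The death receptors FAS, TNFRSF10A and TNFRSF10B recruit caspases when FASLG or TNFSF10 (TRAIL) binds them. TRAF proteins carry the costimulatory signal to NF-kB, and TNFAIP3 (A20) is a target of NF-kB that switches it off again. In T cells CD70 and TNFRSF4 are known as markers of recent activation.

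The sorted cells carried the T cell markers CD5 and CD6, the 2 of 8 listed T cell genes that had a single-gene probe set, at a mean level between 8.30 and 9.69 in every transplant and healthy array. Of these 2, 1 was called lower than in Healthy.Control in NoRx.F, Siro.F and FR104.Siro.F (median changes of -0.39, -0.50 and -0.07), and in Auto.D36 1 was higher and 1 lower. In Healthy.Control CD5 averaged 10.79 and CD6 7.56. The 4 platelet genes averaged 10.65 (PF4), 9.70 (PPBP), 5.95 (ITGA2B) and 5.97 (GP9) there. The 4 NK cell genes averaged 9.41 (KLRF1), 10.12 (NCAM1), 11.21 (KLRD1) and 5.52 (SH2D1B). Which cells carried them was not tested. A list of 9 genes of dividing cells stood between 9.01 and 10.16 in NoRx.F and between 6.08 and 7.39 in Healthy.Control. A list of 11 monocyte and myeloid genes stood between 6.21 and 7.99 in NoRx.F and between 4.93 and 7.38 in Healthy.Control, and none of these 11 was at or below the 4.65 level in every array. The labels assign each array to 1 of 4 batches, and batch is a term of every fit. FR104 and Auto arrays all lay in batch 4, Bela and Tac.Mtx arrays all in batch 3, and NoRx.F and Siro.F arrays in batches 1 and 2, each with Healthy.Control arrays of the same batch. On 8 transplant arrays the brightest spike-in control exceeded the highest healthy value of 14.08: 3 of FR104.Siro.D14, 2 of FR104.Siro.F and 1 each of FR104.D14, Bela.Siro.F and Auto.D14. These are the arrays of Bela.Siro.F animal 38, FR104.D14 animal 23 and Auto.D14 animal 202, and of FR104.Siro.D14 all but animal 27. Where a call was lost without them, the value without them is given. Where leaving arrays out leaves 1 array in a group, as in FR104.Siro.D14 here, that array is assumed to vary like those of the other groups.

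Against Healthy.Control, 25 of the 39 tested genes were called in at least 1 transplant group at an adjusted p of 0.05 or less (limma, Benjamini-Hochberg over 11807 genes). Of these, 18 rose and 7 fell, and 0 did both. The share of all 11807 genes called in at least 1 group was not computed, so these counts cannot be set beside it. TNFRSF4 rose in 13 of 15 groups, CD70 in 10, TNFSF4 in 7 and TNFSF11 in 6. TNFAIP3 fell in 6 groups, TNFRSF25 in 3, CD40LG, TNFAIP8, TNFRSF10A and TNFSF18 in 2 each, and LTB in 1. The remaining 14 tested genes, among them FASLG, TNF, CD40, TNFRSF14, TNFSF14, TNFSF13B, TRAF3 and TRAF6, were called in 0 of the 30 comparisons of 2 groups, with unadjusted p under 0.05 in some of them as given below.

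**Figure D1:**
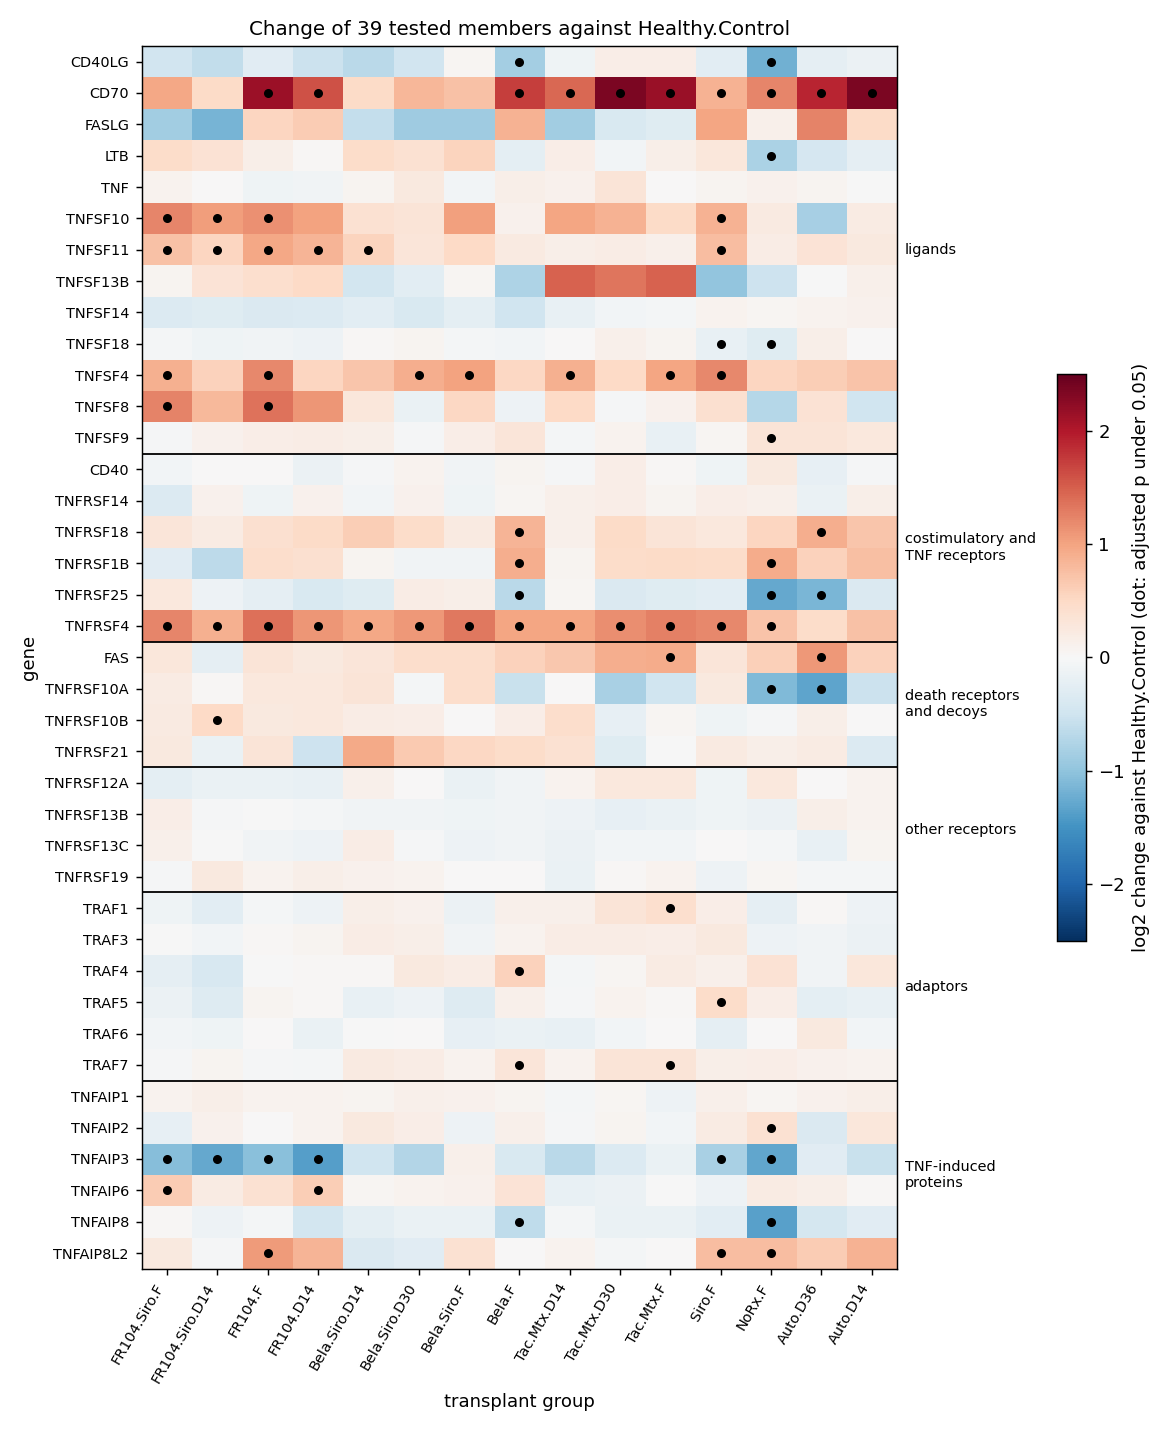
Log2 change of each of the 39 tested genes (rows) in each of 15 transplant groups (columns) against Healthy.Control, as colour, with a dot on called changes. TNFRSF4 and CD70 are the rows with most calls upward, in 13 and 10 groups, and TNFAIP3 is the row with most calls downward, in 6.

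The count of members called in each group is set beside the share of all tested genes called in the same comparison. In NoRx.F 13 of 39 members were called, 6 higher and 7 lower, which is 33.3% against 35.4% of all genes tested. In FR104.Siro.D14 5 members were called (4 higher, 1 lower) with 18.2% of all genes, and in FR104.Siro.F 7 (6 higher, 1 lower) with 10.1%. FR104.D14 had 5 calls (4 higher, 1 lower) with 5.39% of all genes, and FR104.F had 8 (7 higher, 1 lower) with 10.7%. In the Bela.Siro regimen 2 members rose at each time, with 2.52% of all genes called at D14, 7.18% at D30 and 2.84% in the final samples. Bela.F had 9 calls (6 higher, 3 lower) with 17.6% of all genes. In Tac.Mtx 3 members rose at D14, 2 at D30 and 6 in the final samples, with 1.47%, 3.46% and 14.1% of all genes. Siro.F had 9 calls (7 higher, 2 lower) with 14.6% of all genes. The autologous recipients had 1 call at D14, a rise, with 4.4% of all genes, and 5 at D36 (3 higher, 2 lower) with 16.7%. As a share of members, the calls were 23.1% in Bela.F and Siro.F, 20.5% in FR104.F, 17.9% in FR104.Siro.F, 15.4% in Tac.Mtx.F, 12.8% in FR104.D14, FR104.Siro.D14 and Auto.D36, and 2.56% in Auto.D14. The median change of the members lay between -0.00 and 0.15 over the 15 groups, and that of all genes between -0.03 and 0.08.

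**Figure D2:**
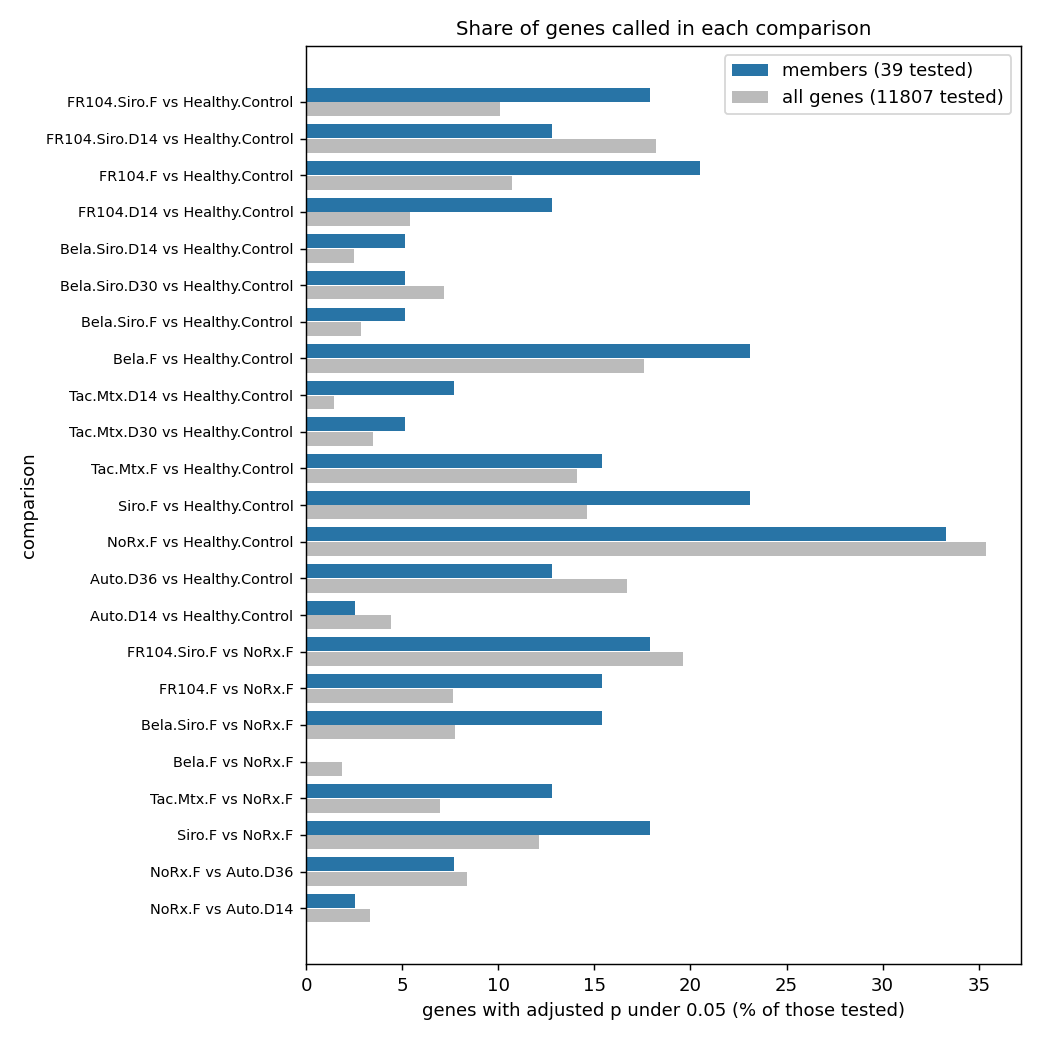
Share of the 39 tested members called in each comparison with Healthy.Control, NoRx.F or the Auto groups (rows), beside the share of all 11807 genes called in the same comparison (x axis, percent). In NoRx.F the shares are 33.3% and 35.4%, and in FR104.F 20.5% and 10.7%.

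CD70, the ligand of CD27, showed the largest rises of the family, 5.13-fold in Auto.D14 and 5.1-fold in Tac.Mtx.D30. Its level was 7.60, 8.71 and 7.56 in Auto.D14 and 7.97, 6.86 and 7.68 in Auto.D36. It was 8.38, 7.65 and 7.17 in FR104.F and 7.84, 7.79 and 7.59 in Tac.Mtx.F. Healthy.Control arrays ran from 4.64 over a median of 5.62 to 6.67, so that every array of these 4 groups lay above every healthy array. The log2 change was 2.36 ± 0.37 in Auto.D14 (SE, adjusted p = 7.58e-05), 1.90 ± 0.37 in Auto.D36 (0.000205), 2.13 ± 0.37 in FR104.F (0.000117) and 2.15 ± 0.34 in Tac.Mtx.F (2.68e-05). In Bela.F, with 7.68, 6.64 and 7.63, the change was 1.73 ± 0.34 (0.000109), with 1 of 3 arrays inside the healthy range. All 5 of these calls remained with each array of the transplant group left out in turn, and the Auto.D14 change was 1.98 without its array of high spike-in signal.

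The other CD70 calls were each lost without at least 1 array. FR104.D14 had 7.05, 7.86 and 6.69 and a change of 1.60, which became 1.27 without animal 22 (adjusted p = 0.0889). Tac.Mtx.D14 had 7.16, 7.51 and 6.39 and a change of 1.44, which became 1.37 without animal 21 (0.156) and 1.19 without animal 20 (0.261). Tac.Mtx.D30 had 7.63 and 8.24 and a change of 2.35, which became 2.04 without animal 19 (0.0917). These Tac.Mtx and FR104.D14 arrays, all but the Tac.Mtx.D14 value of 6.39, lay above the healthy range. NoRx.F had 6.48, 6.27, 7.08 and 7.62 and a change of 1.23, which became 0.87 without animal 53 (0.0628). Siro.F had 6.28, 6.16, 5.91 and 7.67 and a change of 0.87, which became 0.43 without animal 18 (0.491) and 0.94 without animal 17 (0.0518). In these last groups 2 of 4 and 3 of 4 arrays overlapped the healthy range.

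In the combined regimens with Siro, CD70 was not called. A missing call there does not show that CD70 stayed at the healthy level. CD70 stood above the healthy mean in all 15 transplant groups, by 0.47 to 2.36 on the log2 scale. Its mean was 6.56 in FR104.Siro.F, without a call, and 6.51 in Siro.F, with one. Its level was 6.96, 6.48, 6.58 and 6.23 in FR104.Siro.F, 5.98, 7.02, 5.91 and 5.36 in FR104.Siro.D14, and 6.62 and 6.01 in Bela.Siro.F. It was 6.41, 5.19 and 6.55 in Bela.Siro.D14 and 6.94, 6.08 and 6.23 in Bela.Siro.D30. All but 3 of these 16 arrays overlapped the healthy range. Set directly against each other, FR104.Siro.F differed from FR104.F in CD70 by -1.17 (95% interval -1.98 to -0.37, unadjusted p = 0.00501, adjusted p = 0.5 over all genes), and Bela.Siro.F from Bela.F by an amount with a 95% interval of -1.97 to -0.03 (unadjusted p = 0.0425, adjusted p = 0.519). Neither difference passed the threshold. Of the 9 genes of dividing cells, 9 were higher in NoRx.F, Bela.F, FR104.F and Siro.F, 7 in Auto.D14, Auto.D36, FR104.D14 and Tac.Mtx.F, 5 in Tac.Mtx.D30 and 2 in Tac.Mtx.D14. In the groups without a CD70 call 3 were higher in FR104.Siro.F, 1 in Bela.Siro.F, and 0 in FR104.Siro.D14, Bela.Siro.D14 and Bela.Siro.D30. The part of these markers in the CD70 result was not tested.

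**Figure D3:**
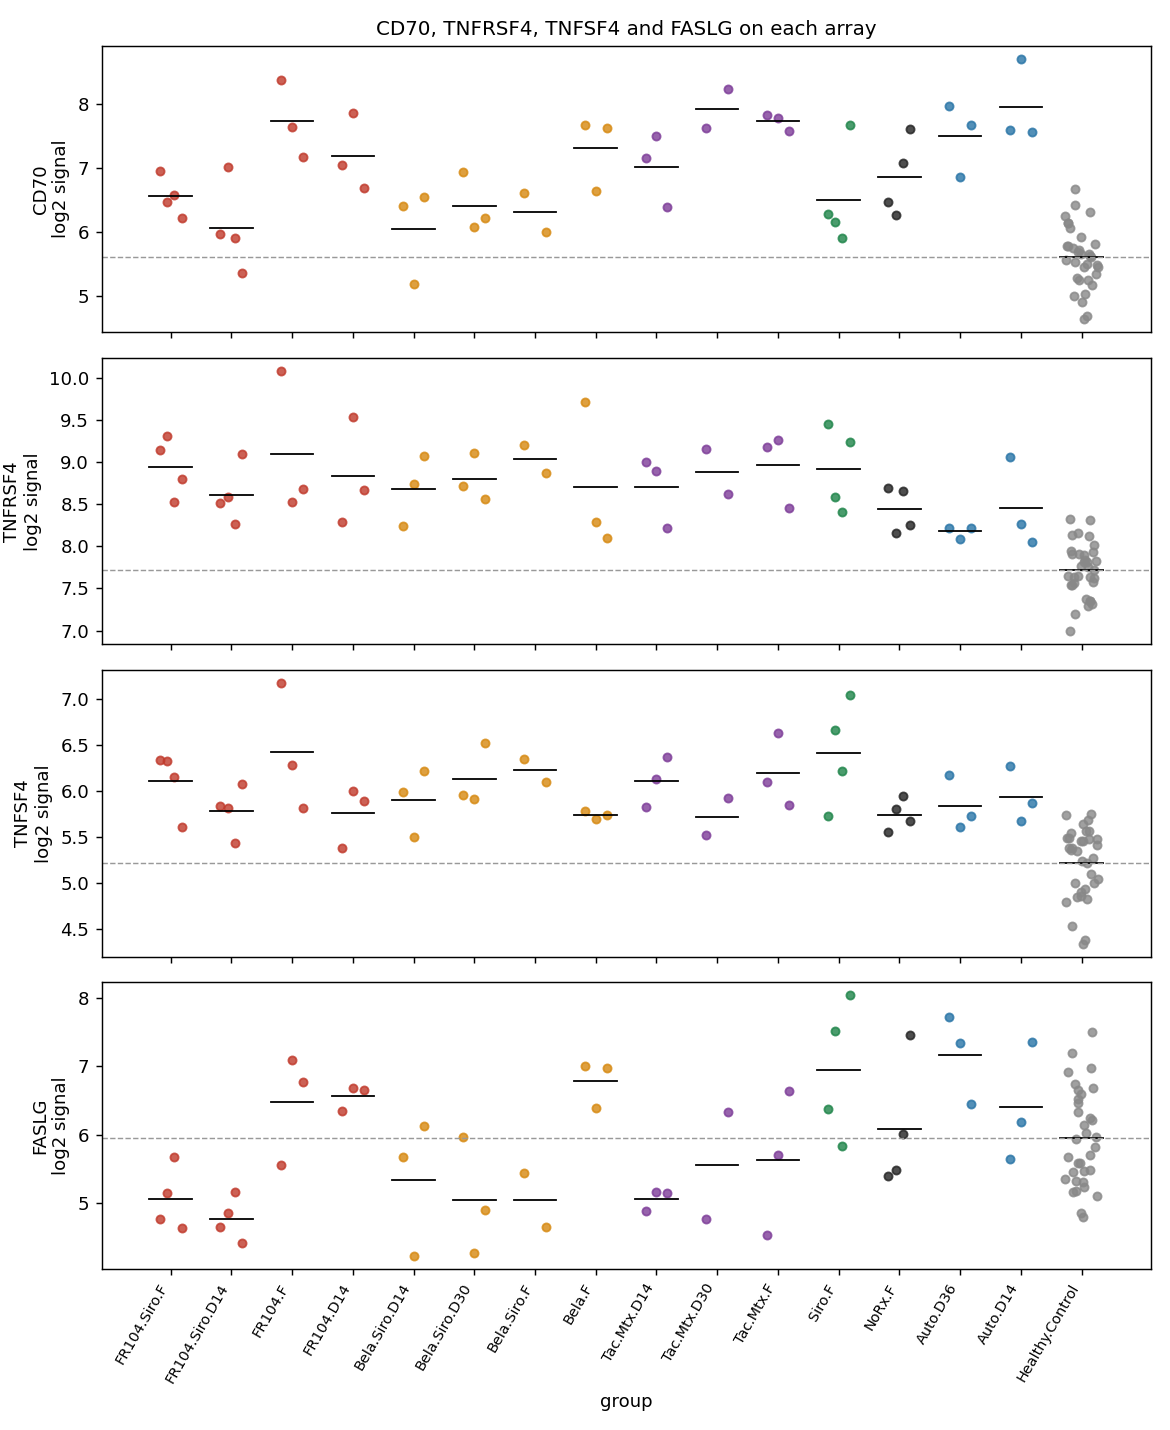
Log2 signal (y axes) of CD70, TNFRSF4, TNFSF4 and FASLG on every array, by group (x axis), with transplant groups left of Healthy.Control, a black line at each group mean and a dashed line at the healthy mean. For CD70, all 3 arrays of Auto.D14, Auto.D36, FR104.F and Tac.Mtx.F lie above the highest healthy value of 6.67.

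TNFSF4 (OX40L) and its receptor TNFRSF4 (OX40) both stood above the healthy mean in all 15 transplant groups, TNFSF4 by 0.50 to 1.20 and TNFRSF4 by 0.45 to 1.37 on the log2 scale. TNFRSF4 was called in every group except the autologous ones, where it also stood above the healthy mean but did not pass the threshold. In the direct comparisons of NoRx.F with Auto.D14 and Auto.D36, TNFRSF4 was not called. It measured 10.08, 8.53 and 8.68 in FR104.F, 9.18, 9.26 and 8.46 in Tac.Mtx.F, and 9.45, 8.59, 8.41 and 9.24 in Siro.F, against 6.99 to 8.32 with a median of 7.74 in Healthy.Control. All 10 of these arrays lay above the healthy range. The changes were 1.37 ± 0.29 (adjusted p = 0.000996), 1.25 ± 0.26 (0.000847) and 1.21 ± 0.23 (0.000129). The call in FR104.F was lost without animal 22, where the change was 0.88 (0.118). Those in Tac.Mtx.F and Siro.F remained with each array left out in turn.

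In FR104.Siro.F TNFRSF4 read 9.14, 9.31, 8.53 and 8.80, again above every healthy array, with a change of 1.22 ± 0.26 (adjusted p = 0.00128) that kept its call with each array left out in turn and was 1.50 without the 2 arrays of high spike-in signal. FR104.Siro.D14, with 8.52, 8.58, 8.27 and 9.09, had a change of 0.89 (0.0149), which became 0.73 without animal 27 (0.0765). It was 0.67 over the 2 day 14 arrays (0.23) and 1.36 with animal 27 alone, without the 3 arrays of high spike-in signal (0.0913). NoRx.F had the smallest called rise of TNFRSF4, 0.72 (0.0145), with levels of 8.69, 8.16, 8.66 and 8.25, of which 2 overlapped the healthy range, and with 0.64 without animal 50 (0.0585) and 0.65 without animal 52 (0.0544). In Bela.F the values were 9.71, 8.29 and 8.10, and the change of 0.98 (0.00486) became 0.47 without animal 47 (0.385). In the autologous recipients the receptor measured 9.06, 8.27 and 8.05 at D14 and 8.22, 8.09 and 8.22 at D36. Only 1 of these 6 arrays lay above the healthy range.

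The remaining TNFRSF4 calls lay between 0.96 and 1.31 on the log2 scale, in Bela.Siro.D14, Bela.Siro.D30, Bela.Siro.F, FR104.D14, Tac.Mtx.D14 and Tac.Mtx.D30, and each was lost without at least 1 array. In Bela.Siro.F TNFRSF4 measured 9.20 and 8.87 and differed by 1.31 ± 0.31 (adjusted p = 0.00908), with 1.15 without animal 38 (0.168) and 1.48 without animal 42 (0.103). Bela.Siro.D14 gave 0.93 without animal 42 (0.241) and 0.77 without animal 49 (0.153), and Bela.Siro.D30 gave 0.92 without animal 42 (0.0986). FR104.D14 gave 0.75 without animal 22 (0.21) and 1.18 without animal 23 (0.0578). Tac.Mtx.D14 gave 0.84 without animal 21 (0.376) and 0.89 without animal 20 (0.286). Tac.Mtx.D30 gave 0.90 without animal 20 (0.331) and 1.43 without animal 19 (0.133). Every direction was kept, and all arrays of Bela.Siro.D30, Bela.Siro.F and Tac.Mtx.D30 lay above the healthy range.

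The ligand TNFSF4 rose most in FR104.F and Siro.F. It measured 7.17, 6.28 and 5.81 in FR104.F and 5.73, 6.66, 6.22 and 7.04 in Siro.F, against 4.34 to 5.75 with a median of 5.35 in Healthy.Control. Of these 7 arrays, 1 of Siro.F reached into the healthy range. The change was 1.20 ± 0.26 in FR104.F (adjusted p = 0.00131) and 1.20 ± 0.21 in Siro.F (3.51e-05), and that of FR104.F became 0.83 without animal 22 (0.109). FR104.Siro.F had 6.33, 6.32, 6.15 and 5.61 and a change of 0.89 ± 0.24 (0.00998), which remained called with each array left out in turn. TNFSF4 was also higher in Tac.Mtx.F (0.98), Bela.Siro.F (1.01), Bela.Siro.D30 (0.90) and Tac.Mtx.D14 (0.89). These calls were lost without Tac.Mtx.F animal 20 (0.76, 0.105), without either Bela.Siro.F animal (0.88 and 0.285 without 38, 1.14 and 0.199 without 42), without Bela.Siro.D30 animal 49 (0.71, 0.199), and without any of the 3 Tac.Mtx.D14 animals (0.76 to 1.03). Over the 16 group means TNFSF4 and TNFRSF4 had a Pearson correlation of 0.791, a description of means whose groups differ in size and share animals.

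TNFSF18, the ligand of TNFRSF18, moved little. It was lower in NoRx.F by -0.31 ± 0.07 (adjusted p = 0.000142), with 11.03, 10.96, 11.05 and 11.27 against a healthy range of 11.19 to 11.57, and in Siro.F by -0.18 ± 0.06 (0.048). In NoRx.F 3 of 4 arrays lay below every healthy array. The Siro.F call was lost without animals 17, 16 or 18, with changes of -0.14, -0.19 and -0.15. A second TNFSF18 probe set gave -0.07 in NoRx.F (0.742), and the average over its probe sets was -0.12 in NoRx.F (0.138) and -0.13 in Siro.F (0.138), neither called. TNFRSF18 stood above the healthy mean in all 15 groups and was called in Auto.D36 and Bela.F. Auto.D36 had 8.48, 9.61 and 9.24, a change of 0.91 ± 0.27 (0.0129), and 0.66 without animal 200 (0.181) or 0.85 without animal 202 (0.0602). Bela.F had 10.24, 8.61 and 8.25 against a healthy range of 7.58 to 9.12, and its change of 0.85 became 0.25 without animal 47 (0.692), the 1 array above that range.

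TNFSF8 (CD30L), whose receptor TNFRSF8 was not analysed here, rose in the FR104 regimens. Its level was 8.26, 7.32, 7.84 and 8.78 in FR104.Siro.F and 8.08, 8.38 and 8.04 in FR104.F, against 5.20 to 7.93 with a median of 6.90 in Healthy.Control. All 3 FR104.F arrays and 2 of 4 FR104.Siro.F arrays exceeded the healthy range. The change was 1.24 ± 0.35 in FR104.Siro.F (adjusted p = 0.0138) and 1.35 ± 0.38 in FR104.F (0.0131). The FR104.Siro.F change was 1.17 without animal 27 (0.051), 1.00 without animal 28 (0.108) and 0.98 without the arrays of high spike-in signal (0.222). That of FR104.F was 1.40 without animal 22 (0.0706) and 1.24 without animal 23 (0.0784). With the animal as a random block TNFSF8 was also called in FR104.D14 (1.23, 0.034). TNFSF8 was lowest in NoRx.F, at 6.62, 6.04, 5.72 and 5.99, all inside the healthy range.

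TNFSF10 (TRAIL), a ligand of the death receptors, rose in FR104.Siro.F, FR104.Siro.D14, FR104.F and Siro.F. Its level was 12.19, 12.10, 11.52 and 11.38 in FR104.Siro.F and 11.86, 11.53, 11.27 and 11.77 in FR104.Siro.D14, against 9.43 to 11.50 with a median of 10.64 in Healthy.Control. In each of these groups 3 of 4 arrays exceeded the healthy range. The changes were 1.23 ± 0.34 (adjusted p = 0.0111) and 1.04 ± 0.34 (0.0246). The first became 1.10 without animal 27 (0.0575) and 1.58 without the arrays of high spike-in signal (0.0268). The second became 0.96, 1.07 and 0.99 without animals 26, 29 and 27, with adjusted p between 0.0512 and 0.0654, 1.00 over the 2 day 14 arrays (0.159), and 1.21 with animal 27 alone, without the arrays of high spike-in signal (0.249). FR104.F had a TNFSF10 change of 1.14 (0.0336), with 0.93 without animal 22 (0.255) and 0.89 without animal 23 (0.229), and Siro.F one of 0.87 (0.0356), with 0.65 without animal 13 (0.242), 0.85 without animal 17 (0.0835) and 0.91 without animal 18 (0.0882). Averaged over its probe sets, TNFSF10 in Siro.F gave 0.44 (0.141). With the animal as a random block TNFSF10 was also called in FR104.D14 (1.07, 0.0472). In Auto.D36, with 10.26, 9.09 and 9.86, TNFSF10 differed by -0.83 without passing the threshold (0.117). Another probe set of TNFSF10 rose with the one chosen in FR104.F and FR104.Siro.F, by 1.22 (0.0427) and 1.35 (0.0136), and another, dimmer one gave -0.34 in both. That dimmer probe set was lower in NoRx.F by -0.57 (0.000173), where the chosen one gave 0.22 (0.635).

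TNFSF11 (RANKL), a ligand that activated T cells display, stood above the healthy mean in all 15 groups and was called in 6. It measured 5.78, 6.08 and 5.78 in FR104.F and 5.82, 5.34, 5.35 and 6.28 in Siro.F, against 4.52 to 5.31 with a median of 4.90 in Healthy.Control. All 7 arrays lay above every healthy array. The change was 0.96 ± 0.18 in FR104.F (adjusted p = 0.000277) and 0.78 ± 0.14 in Siro.F (7.94e-05), and both remained called with each array left out in turn. The second probe set of TNFSF11 averaged 4.26 over all arrays, under the 4.65 level, and no change is given for it. FR104.Siro.F, with 6.0, 5.67, 5.20 and 5.79, differed by 0.74 (0.00156) and also remained called with each array left out in turn. FR104.D14 (0.84), Bela.Siro.D14 (0.55) and FR104.Siro.D14 (0.54) lost the TNFSF11 call without FR104.D14 animal 23 (0.69, 0.0748), without Bela.Siro.D14 animal 42 (0.47, 0.392) or 49 (0.37, 0.262), and without FR104.Siro.D14 animal 28 (0.48, 0.0517) or 27 (0.50, 0.0548). In FR104.Siro.D14 TNFSF11 was 0.65 over the 2 day 14 arrays (0.0561) and 0.67 with animal 27 alone, without the arrays of high spike-in signal (0.148).

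LTB, which makes a membrane complex with LTA, and CD40LG, the T cell ligand of CD40 on B cells and myeloid cells, were lowest in NoRx.F. LTB measured 11.84, 12.18, 11.54 and 12.20 in NoRx.F, against 11.99 to 13.30 with a median of 12.76 in Healthy.Control. CD40LG measured 8.17, 7.84, 7.91 and 8.62 in NoRx.F, against 8.40 to 10.10 with a median of 9.39. In each case 2 or more of the 4 NoRx.F arrays lay below every healthy array. LTB fell by 0.79 (SE 0.17, adjusted p = 0.000123) and CD40LG by 1.21 (SE 0.24, 3.12e-05). CD40LG was also lower in Bela.F, with 8.32, 9.04 and 8.21 and a change of -0.84 ± 0.26 (0.0161), which became -0.73 without animal 47 (0.148) and -0.68 without animal 46 (0.162). The 2 dimmer probe sets of CD40LG gave -0.63 (0.0899) and -0.34 (0.415) in NoRx.F, and the gene table lists the chosen one under the human gene. CD40, known from B cells and antigen-presenting cells, lay within 0.24 of its healthy mean in each of the 15 groups and was called in none (limma, 1 at an unadjusted p under 0.05).

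FASLG, the death ligand of cytotoxic T and NK cells, had the second largest range of group means in the family, 4.77 in FR104.Siro.D14 to 7.17 in Auto.D36, and was called in 0 comparisons (limma, 5 at an unadjusted p under 0.05). It measured 7.73, 7.34 and 6.45 in Auto.D36 and 4.65, 4.85, 5.16 and 4.42 in FR104.Siro.D14, against 4.79 to 7.50 with a median of 5.88 in Healthy.Control. Both sets overlapped the wide healthy range. FASLG in FR104.Siro.F differed from FR104.F by -1.42 (95% interval -2.52 to -0.31, unadjusted p = 0.0125, adjusted p = 0.571), and in Bela.Siro.F from Bela.F by -1.75 (-3.07 to -0.43, 0.00992, adjusted p = 0.289). Of 4 NK cell genes, 1 was lower in FR104.Siro.F than in Healthy.Control and the median change of the 4 was -1.44. In FR104.F 1 was lower and the median was -0.83. The part of those genes in the FASLG values was not tested.

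TNFSF13B (BAFF), a survival factor for B cells made largely by myeloid cells, had the largest range of group means, 7.74 in Siro.F to 10.19 in Tac.Mtx.F. Its level was 10.86, 10.08 and 9.62 in Tac.Mtx.F, against 6.28 to 10.43 with a median of 8.93 in Healthy.Control, and its change of 1.48 did not pass the threshold (adjusted p = 0.0672). In Tac.Mtx.F 2 of 11 monocyte genes were higher than in Healthy.Control, with 14.1% of all genes called. In NoRx.F, where TNFSF13B measured 7.46, 8.08, 8.72 and 8.53, 4 of the 11 were higher, with 35.4% of all genes called. The differences of TNFSF14 (LIGHT) from its healthy mean ran from -0.49 to 0.10, and those of its receptor TNFRSF14 (HVEM) from -0.34 to 0.17. TNF itself was dim, above the 4.65 level in 15 arrays, with changes of -0.10 to 0.32, and TNFSF9 (4-1BBL) above it in 7. TNFSF9 rose in NoRx.F by 0.33 (0.0258), with 4.40, 4.99, 4.48 and 4.45 against a healthy range of 4.04 to 4.51, so that 1 of these NoRx.F arrays lay above the 4.65 level. The rise became 0.20 without animal 51 (0.241), the 1 array above that range.

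Among the receptors, TNFRSF1B (TNFR2), a TNF receptor of activated and regulatory T cells and of myeloid cells, rose in NoRx.F and Bela.F. It measured 10.29, 10.13, 10.23 and 10.02 in NoRx.F and 10.35, 10.11 and 10.04 in Bela.F, against 8.41 to 10.02 with a median of 9.31 in Healthy.Control. All of these arrays lay above every healthy array except that of NoRx.F animal 53, which stood at the highest healthy value. The changes were 0.93 ± 0.25 (adjusted p = 0.00217) and 0.91 ± 0.27 (0.0122). That of Bela.F became 0.82 without animal 47 (0.118), and that of NoRx.F remained called with each array left out in turn. Of the 11 monocyte and myeloid genes, 4 were higher in NoRx.F, and 4 higher and 1 lower in Bela.F. In Bela.Siro.D14 5 were higher, and there TNFRSF1B, at 9.58, 8.69 and 9.69, was not called. Of all genes tested, 35.4% were called in NoRx.F, 17.6% in Bela.F and 2.52% in Bela.Siro.D14. The part of the monocyte and myeloid genes in the TNFRSF1B result was not tested.

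TNFRSF25 (DR3), a death-domain receptor of resting T cells with costimulatory action, fell in NoRx.F, Auto.D36 and Bela.F. It measured 9.92, 9.86, 9.81 and 10.19 in NoRx.F and 10.14, 9.39 and 10.72 in Auto.D36, against 10.51 to 11.82 with a median of 11.22 in Healthy.Control. The NoRx.F arrays lay below every healthy array, and so did 2 of the 3 Auto.D36 arrays. The change was -1.27 ± 0.22 in NoRx.F (adjusted p = 3.71e-06) and -1.14 ± 0.27 in Auto.D36 (0.00162), and that of Auto.D36 became -0.80 without animal 200 (0.0796). In Bela.F it was -0.67 (0.0448), with -0.68 without animal 47 (0.157) and -0.50 without animal 46 (0.295). The 2 dimmer probe sets of TNFRSF25 gave -0.35 (0.264) and 0.10 (0.819) in NoRx.F, so that the fall was seen on the brightest of 3 alone. Averaged over the probe sets, the Auto.D36 change was -0.44 (0.186).

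Of the death receptors, TNFRSF10A (a TRAIL receptor) fell in Auto.D36 and NoRx.F. It measured 7.45, 6.90 and 6.94 in Auto.D36 and 6.93, 7.44, 7.06 and 7.75 in NoRx.F, against 7.63 to 9.07 with a median of 8.39 in Healthy.Control. Of these 7 arrays, 6 lay below every healthy array. The changes were -1.31 ± 0.28 (adjusted p = 6e-04) and -1.11 ± 0.23 (9.43e-05), both called with each array left out in turn. The second probe set of TNFRSF10A gave -0.84 in NoRx.F (0.000715). TNFRSF10B, the other TRAIL receptor measured, was called in FR104.Siro.D14 alone, by 0.50 (0.0442), with 5.59, 5.44, 4.72 and 5.48 against a healthy range of 4.37 to 5.39, 0.35 over its 2 day 14 arrays (0.385), and 0.67 with animal 27 alone, without the arrays of high spike-in signal (0.192). Leaving out animals 26, 29 or 27 gave 0.40, 0.46 and 0.44, none of them called.

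FAS, the receptor of FASLG, rose in Auto.D36 and Tac.Mtx.F. It measured 9.52, 9.42 and 9.43 in Auto.D36 and 9.34, 9.59 and 8.99 in Tac.Mtx.F, against 7.33 to 9.31 with a median of 8.36 in Healthy.Control. All 3 Auto.D36 arrays and 2 of 3 Tac.Mtx.F arrays exceeded the healthy range. The changes were 1.09 ± 0.31 (adjusted p = 0.00949) and 0.93 ± 0.28 (0.0182). That of Tac.Mtx.F became 0.91 without animal 21 (0.0847) and 0.79 without animal 20 (0.171). The other bright probe sets of FAS rose by 0.95 and 0.76 in Tac.Mtx.F, and both were called. TNFRSF12A, TNFRSF13B, TNFRSF13C and TNFRSF19 lay within 0.27 of their healthy means in all 15 groups. TNFRSF21, above the 4.65 level in 7 arrays, differed by -0.52 to 0.94 from its healthy mean, and none of these genes was called.

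Of the 6 adaptors, 4 were called in at least 1 group, and all 4 rose. This count has no matching share of all genes called in at least 1 group, which was not computed. The adaptor calls lay in Bela.F, Tac.Mtx.F and Siro.F, where 17.6%, 14.1% and 14.6% of all genes were called. In each of these groups more genes were called higher than lower, so the shared direction alone does not set the adaptors apart. TRAF5, which binds the tails of costimulatory receptors, rose in Siro.F by 0.45 ± 0.11 (adjusted p = 0.00373), with 9.56, 9.87, 9.72 and 10.09 against a healthy range of 9.09 to 9.62, and by 0.35 without animal 18 (0.0887). TRAF4 rose in Bela.F by 0.58 (0.0106), with 9.57, 8.89 and 8.85 against 8.14 to 9.06, and by 0.34 without animal 47 (0.334), the 1 array above that range. TRAF1, itself a known NF-kB target, rose in Tac.Mtx.F by 0.42 (0.045), with 6.83, 7.47 and 6.92 against 6.14 to 7.05, and by 0.22 without animal 20 (0.533) or 0.50 without animal 19 (0.0521). TRAF7 rose by 0.31 in Bela.F (0.039) and 0.32 in Tac.Mtx.F (0.0426). Both TRAF7 calls were lost without any 1 array of their group, with changes of 0.23 to 0.36 and of 0.28 to 0.34. Averaged over probe sets, TRAF7 in Bela.F gave 0.16 (0.224) and TRAF1 in Tac.Mtx.F 0.37 (0.173). TRAF3 and TRAF6 lay within 0.24 of their healthy means in all 15 groups.

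Among the TNF-induced proteins TNFAIP3 (A20) was lower in 6 groups. It measured 9.76, 11.13, 10.32 and 9.87 in FR104.Siro.F, 10.15, 10.69, 9.25 and 10.10 in FR104.Siro.D14, 9.95, 10.51 and 10.38 in FR104.F, and 10.35, 10.06 and 9.45 in FR104.D14, against 10.42 to 12.06 with a median of 11.34 in Healthy.Control. The 3 FR104.D14 arrays lay below every healthy array, as did 3 of 4 in each FR104.Siro group and 2 of 3 in FR104.F. The change was -1.06 ± 0.30 in FR104.Siro.F (adjusted p = 0.013), -1.28 ± 0.30 in FR104.Siro.D14 (0.00248), -1.05 ± 0.32 in FR104.F (0.0253) and -1.38 ± 0.32 in FR104.D14 (0.00517). In NoRx.F, with 10.29, 9.80, 9.87 and 10.22, all below the healthy range, TNFAIP3 fell by 1.29 (8.86e-05), and 4 of its 5 probe sets were called lower. In Siro.F, with 10.26, 10.15, 10.32 and 11.36, it fell by 0.82 (0.0232), and the call was lost without animals 17, 16 or 13 (-0.73, -0.70 and -0.74).

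The calls of TNFAIP3 in NoRx.F and FR104.Siro.D14 remained with each array left out in turn, and the second was -1.24 with animal 27 alone, without the 3 arrays of high spike-in signal (adjusted p = 0.128). In FR104.Siro.F the change was -0.89 without animal 27 (0.0827), -0.93 without animal 28 (0.077) and -0.89 without the arrays of high spike-in signal (0.148). In FR104.F it was -0.88 without animal 22 (0.206) and -1.10 without animal 24 (0.0519). In FR104.D14 it was -1.13 without animal 23 (0.124), the array of high spike-in signal. No Bela or Tac.Mtx group had a TNFAIP3 call on the chosen probe set, but 2 dimmer ones were lower in Bela.F, by -0.70 (0.0303) and -0.54 (0.0334).

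TNFAIP8, a regulator of apoptosis named for its induction by TNF, gave the smallest adjusted p of the family. It measured 9.96, 9.54, 9.80 and 9.90 in NoRx.F, against 10.49 to 11.66 with a median of 11.18 in Healthy.Control. All 4 arrays lay below every healthy array. The change was -1.35 ± 0.18 (adjusted p = 5.89e-09), and all 4 of its probe sets fell, by 1.27 to 1.64. In Bela.F, with 9.92, 10.73 and 11.02, TNFAIP8 was lower by -0.63 (0.0165), which became -0.31 without animal 47 (0.484). Its relative TNFAIP8L2, known as an inhibitor of T cell and innate activation, was higher in FR104.F (1.07, adjusted p = 0.036), NoRx.F (0.78, 0.0303) and Siro.F (0.78, 0.0487). It measured 9.03, 8.87 and 8.52 in FR104.F, 8.03, 8.25, 8.72 and 9.03 in NoRx.F and 8.53, 8.48, 8.40 and 8.63 in Siro.F, against 6.58 to 8.67 in Healthy.Control. Only 2 FR104.F and 2 NoRx.F arrays exceeded the healthy range. Each TNFAIP8L2 call was lost without single arrays: 0.96 and 1.04 without FR104.F animals 22 and 23, 0.72 and 0.53 without NoRx.F animals 52 and 53, and 0.74 to 0.82 without any of the 4 Siro.F animals.

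TNFAIP6, a hyaluronan-binding protein, rose in FR104.D14 by 0.62 (adjusted p = 0.00981) and in FR104.Siro.F by 0.64 (0.00195). It was dim, with 5.18, 4.96 and 5.14 in FR104.D14 and 4.78, 5.34, 5.38 and 4.94 in FR104.Siro.F, against 3.83 to 4.84 in Healthy.Control. The FR104.D14 call was lost without animal 23 (0.60, 0.0894), and that of FR104.Siro.F remained with each array left out in turn but was 0.59 without both arrays of high spike-in signal (0.0637). TNFAIP2 rose in NoRx.F by 0.38 (0.0168), with 6.16, 6.29, 6.33 and 5.93 against 5.38 to 6.28. Without animals 51 or 52 it was 0.35 (0.0571) and 0.34 (0.0684), its second probe set gave -0.24 (0.407), and the average of the probe sets gave 0.07 (0.67). TNFAIP1 lay within 0.14 of its healthy mean in all 15 groups.

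In NoRx.F the 7 falls were TNFAIP8, TNFAIP3, TNFRSF25, CD40LG, TNFRSF10A, LTB and TNFSF18, and all 7 remained called without any 1 of the 4 arrays, as did the rise of TNFRSF1B. By role, 2 of 13 ligands rose and 3 fell, 2 of 6 costimulatory and TNF receptors rose and 1 fell, 1 of 4 death receptors and decoys fell, and 2 of 6 TNF-induced proteins rose and 2 fell. No other receptor and no adaptor was called. With the animal as a random block, TNFSF4 (0.55, adjusted p = 0.0358), FAS (0.63, 0.0392) and TRAF4 (0.37, 0.0448) were called higher too. Of the marker lists in NoRx.F, 9 of 9 genes of dividing cells, 3 of 5 plasma cell genes, 2 of 6 B cell genes and 4 of 11 monocyte and myeloid genes were called higher, and 1 of 2 T cell genes and 1 of 4 NK cell genes lower. These counts, like those by role, stand beside 35.4% of all genes called in this comparison. The plasma cell list averaged 6.75 to 7.13 in NoRx.F and 6.26 to 7.30 in Healthy.Control, and the B cell list 5.80 to 5.83 in NoRx.F and 5.26 to 6.22 in Healthy.Control. The part of these markers in the NoRx.F changes was not tested. Within batch 1, which held 3 NoRx.F arrays and 5 healthy ones, 13 members were called. The share of all genes called there was not computed. The changes were -1.46 for TNFAIP8, -1.43 for TNFRSF25 and 0.72 for CD70. Within batch 2, with 1 NoRx.F array and 10 healthy ones, the same values were -1.24, -0.99 and 2.11. Over the 16 group means LTB had Pearson correlations of 0.872 with TNFRSF25 and 0.855 with TNFRSF10A, and TNFAIP8 of 0.821 with TNFRSF25. These pairs were picked as the highest among all pairs of tested members. The lowest pair was LTB with TNFRSF1B, at -0.788. NoRx.F, where LTB, TNFRSF25, TNFRSF10A and TNFAIP8 all fell, is among the 16 groups.

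**Figure D4:**
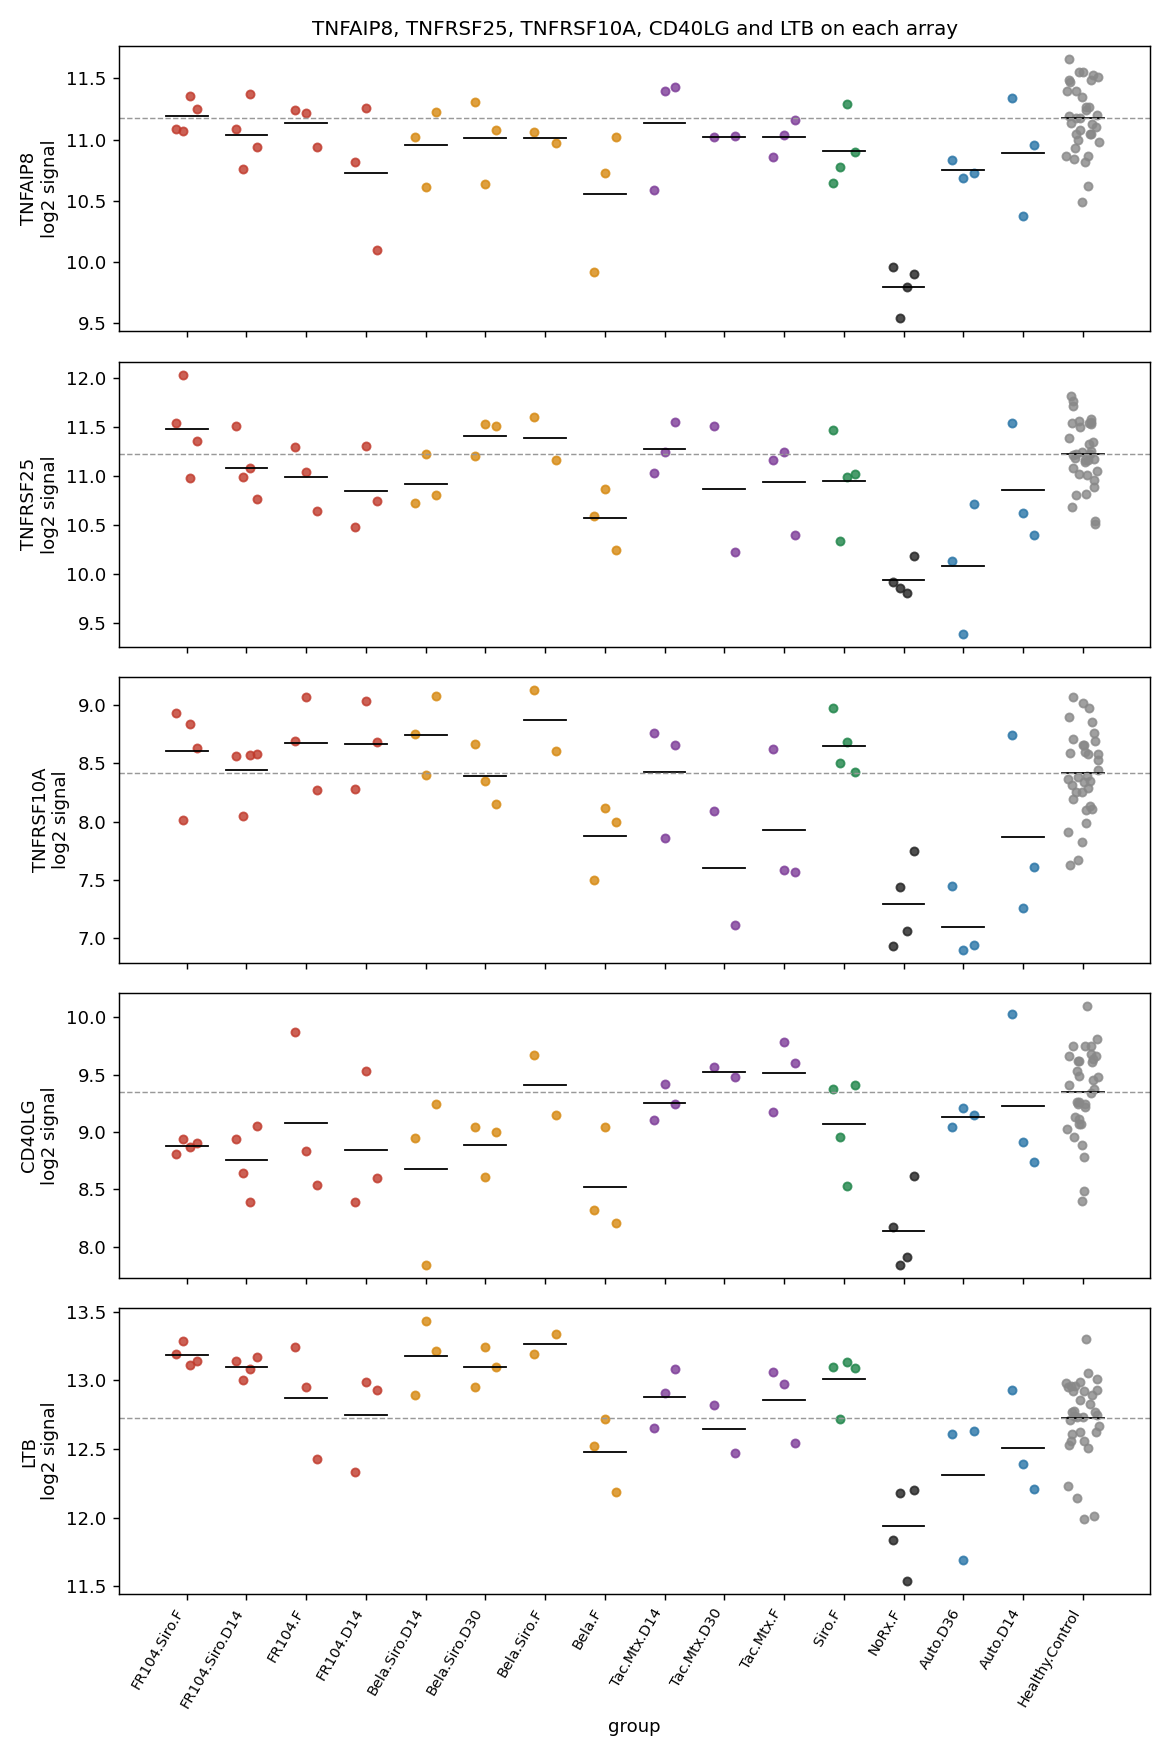
Log2 signal (y axes) of TNFAIP8, TNFRSF25, TNFRSF10A, CD40LG and LTB on every array, by group (x axis), with a black line at each group mean and a dashed line at the healthy mean. All 4 NoRx.F arrays of TNFAIP8 and TNFRSF25 lie below every Healthy.Control array.

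Each prophylaxis group of final samples was next set against NoRx.F. Siro.F had 7 members called, all higher, with 12.1% of all genes called. Tac.Mtx.F had 5, all higher, with 6.95%. Bela.Siro.F and FR104.F had 6 each, all higher, with 7.75% and 7.66%. FR104.Siro.F had 7, of which 5 were higher and 2 lower, with 19.6%. Bela.F had 0 (limma, 4 at an unadjusted p under 0.05), with 1.86% of all genes called. These 6 comparisons share the 4 NoRx.F arrays. Siro.F shares its batches with NoRx.F, and the others share none, so that they are linked to NoRx.F through the Healthy.Control arrays of each batch.

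TNFAIP8 and LTB were called higher than in NoRx.F in 5 of the 6 prophylaxis groups, all but Bela.F. TNFAIP8 measured 11.09, 11.07, 11.36 and 11.25 in FR104.Siro.F, 11.24, 11.22 and 10.94 in FR104.F, and 10.65, 10.78, 11.29 and 10.90 in Siro.F, against 9.96, 9.54, 9.80 and 9.90 in NoRx.F. Every one of these arrays lay above every NoRx.F array. The changes were 1.37 ± 0.27 (adjusted p = 0.000109), 1.31 ± 0.28 (0.00215) and 1.10 ± 0.22 (0.000265), and those of Tac.Mtx.F and Bela.Siro.F were 1.19 and 1.18. All but that of Bela.Siro.F, 1.14 without animal 38 (0.0526), remained called with each array left out in turn. In Bela.F TNFAIP8 was 0.73 above NoRx.F (95% interval 0.20 to 1.26, unadjusted p = 0.0078, adjusted p = 0.163).

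LTB measured 13.19, 13.29, 13.11 and 13.14 in FR104.Siro.F, 13.19 and 13.34 in Bela.Siro.F and 13.10, 12.72, 13.13 and 13.09 in Siro.F, against 11.84, 12.18, 11.54 and 12.20 in NoRx.F. The groups did not overlap. The changes were 1.24 ± 0.25 (adjusted p = 0.000186), 1.34 ± 0.28 (0.00079) and 1.07 ± 0.21 (0.000184), all called with each array left out in turn. Tac.Mtx.F and FR104.F differed by 0.93 each. Those calls were lost without Tac.Mtx.F animal 21 (0.83, 0.0633), without FR104.F animal 22 (0.75, 0.0958) or 23 (0.90, 0.0783), and without NoRx.F animal 52 (0.80 and 0.0543 in Tac.Mtx.F, 0.81 and 0.0698 in FR104.F). In Bela.F LTB was 0.55 above NoRx.F (0.05 to 1.05, adjusted p = 0.303).

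The receptors TNFRSF10A and TNFRSF25 were both called higher in Siro.F, Bela.Siro.F, FR104.F and FR104.Siro.F. TNFRSF10A measured 8.93, 8.01, 8.84 and 8.63 in FR104.Siro.F and 8.98, 8.50, 8.68 and 8.43 in Siro.F, against 6.93, 7.44, 7.06 and 7.75 in NoRx.F, with no overlap. Its changes were 1.31 ± 0.35 (adjusted p = 0.00423) and 1.35 ± 0.28 (0.000578), and they were 1.55 in Bela.Siro.F and 1.38 in FR104.F. The last pair lost the call without Bela.Siro.F animal 38 (1.29, 0.0982) and without FR104.F animal 23 (1.18, 0.0902).

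TNFRSF25 measured 11.54, 12.04, 10.98 and 11.36 in FR104.Siro.F and 11.61 and 11.17 in Bela.Siro.F, against 9.92, 9.86, 9.81 and 10.19 in NoRx.F. Neither group overlapped NoRx.F. The change was 1.53 ± 0.33 in FR104.Siro.F (adjusted p = 0.000432), called with each array left out in turn, and 1.43 in Bela.Siro.F (0.00735), 1.20 without animal 38 (0.109). It was 1.01 in Siro.F (0.00745), 0.81 without animal 17 (0.0741), and 1.05 in FR104.F (0.0488), where the call was lost without animals 22 or 23 (0.90 and 1.03) or without NoRx.F animals 50, 51 or 52 (1.01 to 1.04). Averaged over its 3 probe sets, TNFRSF25 was not called in Siro.F (0.41, 0.296), Bela.Siro.F (0.70, 0.192) or FR104.F (0.49, 0.355).

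Among the ligands TNFSF8 showed the largest difference from NoRx.F, 4.19-fold in FR104.F. With 8.08, 8.38 and 8.04 in FR104.F and 8.26, 7.32, 7.84 and 8.78 in FR104.Siro.F, against 6.62, 6.04, 5.72 and 5.99 in NoRx.F, the groups did not overlap. The changes were 2.07 ± 0.50 (adjusted p = 0.00617) and 1.95 ± 0.47 (0.00171), both called with each array left out in turn. In Siro.F TNFSF8 differed by 1.12 (0.0445), and 6 of 8 single arrays took the call away (1.00 to 1.10). CD40LG was higher in Tac.Mtx.F, with 9.17, 9.78 and 9.60 against 8.17, 7.84, 7.91 and 8.62 in NoRx.F and no overlap, by 1.37 ± 0.35 (0.00885, called with each array left out in turn), and by 1.04 as the average of its probe sets, which was not called (0.0895).

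CD40LG also differed from NoRx.F by 1.26 in Bela.Siro.F (adjusted p = 0.031) and 0.94 in Siro.F (0.0223). Each lost its call without 4 single arrays: Bela.Siro.F animals 38 (1.01) and 42 (1.52) and NoRx.F animals 51 (1.17) and 52 (1.19), and Siro.F animals 17 and 18 (0.82 each) and NoRx.F animals 51 (0.84) and 52 (0.86). As averages of the probe sets these CD40LG differences were 0.77 (0.291) and 0.43 (0.426). TNFSF11 was higher by 0.77 in FR104.F (0.0314) and 0.59 in Siro.F (0.023). Without single arrays TNFSF11 gave 0.67 to 0.81 in FR104.F (lost without animals 23 and 24 and without NoRx.F animals 50, 51 and 52) and 0.40 to 0.55 in Siro.F (lost without animals 17 and 18 and without NoRx.F animal 51). Averaged with its dim second probe set, neither was called (adjusted p = 0.0545 and 0.119). TNFSF18 was higher in Tac.Mtx.F by 0.37 ± 0.10 (0.0127), with 11.44, 11.50 and 11.45 against 11.03, 10.96, 11.05 and 11.27 in NoRx.F and no overlap. Averaged over its probe sets TNFSF18 gave 0.14 there (0.431). With the animal as a random block it was also called in FR104.Siro.F (0.26, 0.0478).

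The further differences from NoRx.F touched 1 group each. TRAF1 was 0.65 higher in Tac.Mtx.F (adjusted p = 0.0343) and 0.45 without animal 20 (0.228), 0.67 without NoRx.F animal 50 (0.0503) and 0.60 without NoRx.F animal 52 (0.0884). TNFAIP3 was 1.41 higher in Bela.Siro.F (0.0351), whose arrays measured 10.55 and 12.34, and 0.51 without animal 42 (0.677), 2.30 without animal 38 (0.00281), the array of high spike-in signal, 1.33 without NoRx.F animal 51 (0.0639) and 1.35 without NoRx.F animal 52 (0.0699). TNFRSF1B was lower in FR104.Siro.F by -1.21 (0.014), with 9.08, 9.92, 8.75 and 8.19 against 10.29, 10.13, 10.23 and 10.02. It was -0.95 without animal 28 (0.0783) and -0.70 without both arrays of high spike-in signal (0.292), and the average of its probe sets, 2 of them under the 4.65 level, gave -0.17 (0.604). TNFAIP2 was lower in FR104.Siro.F by -0.60 (0.0222), with 5.62, 5.52, 5.60 and 5.58 against 6.16, 6.29, 6.33 and 5.93, by -0.55 without NoRx.F animal 52 (0.0548), and by -0.16 as the average of its probe sets (0.569). For both genes every FR104.Siro.F array lay below every NoRx.F array. The median change of the 11 monocyte and myeloid genes between these groups was -0.35, and their part in both results was not tested.

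**Figure D5:**
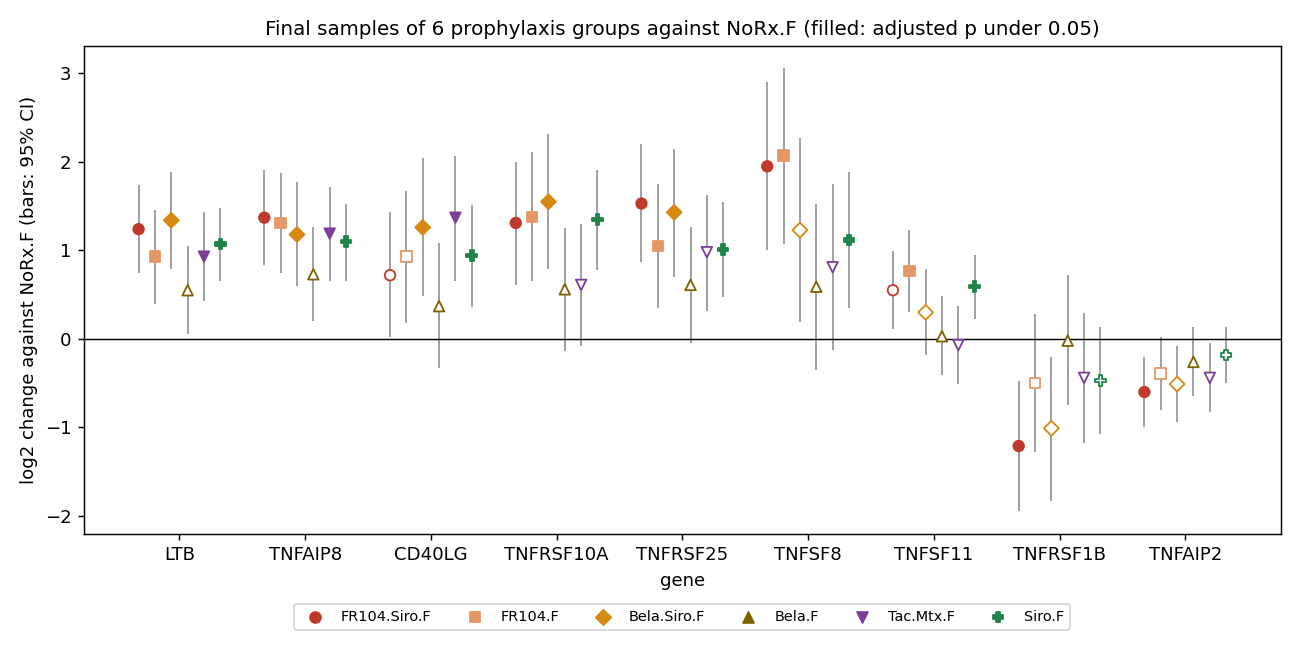
Log2 change (y axis, bars show 95% intervals) of 9 members in 6 prophylaxis groups of final samples against NoRx.F, with filled symbols for called changes. TNFAIP8 and LTB are called higher in 5 groups, and Bela.F has 0 members called, with 1.86% of all genes called.

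CD70 was not among the genes that separated prophylaxis from NoRx.F: its differences ran from -0.50 to 0.92 and 0 of 6 were called (limma, 1 at an unadjusted p under 0.05). TNFRSF4 lay 0.26 to 0.65 above NoRx.F and TNFSF4 between -0.01 and 0.67. Neither was called in any of the 6 (limma, 0 and 1 at an unadjusted p under 0.05). Of 9 genes of dividing cells, 8 were lower than NoRx.F in Tac.Mtx.F, 7 in FR104.Siro.F, 6 in Siro.F and Bela.Siro.F, 3 in FR104.F and 0 in Bela.F. In Bela.F 0 family members were called, with 1.86% of all genes called. TNFAIP8 and LTB lay above NoRx.F in Bela.F too, by 0.73 and 0.55, without a call. The part of cell division in the member differences was not tested. Within batch 1, Siro.F (2 arrays) against NoRx.F (3 arrays) gave 6 members called. The share of all genes called there was not computed. The changes were 1.06 for LTB, 0.95 for TNFAIP8 and 1.60 for TNFRSF10A. Within batch 2 (2 against 1 array) the same values were 0.91, 1.19 and 0.81.

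NoRx.F was also compared with the autologous recipients, the contrast between an allogeneic and an autologous graft without prophylaxis. With Auto.D14 1 member was called, TNFAIP8, with 3.33% of all genes called. It measured 9.96, 9.54, 9.80 and 9.90 in NoRx.F and 11.34, 10.38 and 10.96 in Auto.D14, without overlap, and fell by 1.07 (SE 0.28, adjusted p = 0.018). Without Auto.D14 animal 201 it was -0.85 (0.119) and without animal 200 -1.04 (0.062). With the animal as a random block TNFSF18 was called too, by -0.31 (0.0461). With Auto.D36 3 members were called, 1 higher and 2 lower, with 8.4% of all genes. TNFAIP2 was higher by 0.74 (0.0158) and 0.64 without Auto.D36 animal 200 (0.0738). TNFSF18 was lower by -0.46 ± 0.10 (0.00337), a call that remained with each array left out in turn, with 11.03, 10.96, 11.05 and 11.27 in NoRx.F against 11.59, 11.49 and 11.57 in Auto.D36. The average of its probe sets gave -0.26 (0.0779). TNFAIP8 was lower by -0.93 (0.0267), a call lost without any 1 Auto.D36 array or NoRx.F animal 51 (-0.85 to -0.96). No batch held arrays of NoRx.F and of Auto together.

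Regimens that differ by Siro were compared in final samples. Of the 39 members, 0 were called between FR104.Siro.F and FR104.F (limma, 5 at an unadjusted p under 0.05), with 0.00847% of all genes called, and 0 between Bela.Siro.F and Bela.F (8 at an unadjusted p under 0.05), with 0.457%. Beside CD70 and FASLG, TNFRSF1B had intervals on the same side of 0 in both, -0.71 with FR104 (95% interval -1.36 to -0.07, adjusted p = 0.64) and -1.77 to -0.22 as the interval with Bela (adjusted p = 0.317). With Bela, LTB differed by 0.79 (0.26 to 1.31, adjusted p = 0.179), TNFRSF10A by 1.00 (0.27 to 1.72, 0.248), TNFRSF25 by 0.82 (0.13 to 1.51, 0.394) and CD40LG by 0.89 (0.15 to 1.62, 0.379). The difference between the 2 Siro effects was called in 0 members (3 at an unadjusted p under 0.05: CD40LG -1.09, TNFAIP8L2 -1.20 and TNFRSF10A -1.07, adjusted p = 0.999 each).

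Later samples were set against earlier ones of the same regimen, and again 0 members were called by limma in each of the 5 comparisons. All genes were called to 0.974% in Auto.D36 against Auto.D14 (6 members at an unadjusted p under 0.05), to 0% in Tac.Mtx.F against D14 (0 members), to 0.0508% in Bela.Siro.F against D14 (1 member), to 0% in FR104.F against D14 (2 members) and to 3.1% in FR104.Siro.F against D14 (4 members). TNFAIP2 in Auto.D36, at 5.63, 5.24 and 5.44 against 5.67, 6.66 and 5.92 in Auto.D14, differed by -0.65 ± 0.18 (adjusted p = 0.057), a difference that was called once the animal entered as a random block (0.0164). TNFRSF14 in FR104.Siro.F, at 8.50, 9.15, 8.71 and 8.68 against 9.57, 9.06, 9.09 and 9.10 in FR104.Siro.D14, differed by -0.45 ± 0.14 (0.0635), and was likewise called with the block (0.0212). The TNFAIP2 groups did not overlap, and 1 FR104.Siro.F array of TNFRSF14 reached into the FR104.Siro.D14 range.

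Of 31 listed genes, mainly of the NF-kB and caspase pathways but with ICOS and ICOSLG among them, 25 were tested. In NoRx.F 6 rose and 5 fell against Healthy.Control, where 35.4% of all genes were called. TAB2, an adaptor of the kinase TAK1, fell by 1.16 (adjusted p = 6.84e-09), and IKBKB, the kinase that releases NF-kB, by 0.83 (9.66e-09). BCL3, a nuclear partner of NF-kB, rose by 1.05 (4.42e-06) and NFKBIB, an inhibitor of NF-kB, by 0.50 (1.5e-05). In the other groups at most 3 rose and at most 5 fell, with 2 and 5 in Auto.D36 (16.7% of all genes called) and 3 and 2 in Bela.F (17.6%). BCL3 rose in Bela.F by 1.85 (4.74e-10). Against NoRx.F, TAB2 was higher by 1.64 in FR104.Siro.F, 1.54 in Bela.Siro.F, 1.29 in Tac.Mtx.F, and 1.04 in FR104.F and Siro.F. TAB2 was lower in NoRx.F than in Auto.D14 by -0.92 (0.0186) and than in Auto.D36 by -0.75 (0.0396).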

How the data were processed

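CD3 T cell RNA of 81 samples (50 animals, 16 groups) was hybridised to a rhesus macaque expression array. The deposited values are log2 signals made by the authors with RMA in affy, per the submitters' processing notes; versions, background settings and any batch adjustment are not given in the sources used here. Among the Healthy.Control arrays, 61.02% of probe sets had a p above 0.95 in an F test between batches, where 5% is expected. The healthy batches were thus more alike than expected of arrays that vary independently, and the reason was not tested. Batch means of a tested member differed there by at most 0.39, in CD70. RMA normalizes between arrays, so differences are relative to each array's whole signal. Array medians lay between 5.12 and 5.31 and values between 1.52 and 16.67. The number of arrays limits the precision, and nothing was imputed or dropped.

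Of 52865 probe sets, 25330 had a gene name in the platform table, 24969 of them 1 gene and 361 several; 27535 had none here. The highest-mean single-gene probe set stood for each gene. Genes above 4.65 (40th percentile) in at least 2 arrays were tested (11807 of 14133). Groups came from the sample titles. limma 3.58.1 in R 4.3.3 (lmFit, eBayes with trend) fitted 16 groups and 4 batches over all 81 arrays with 62 residual degrees of freedom. Two-sided p-values were adjusted by Benjamini-Hochberg over all genes within a comparison, at 0.05. Animals give the replicates of a group, and within a group each animal has 1 array. Errors after ± are standard errors of the fit.

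Same-animal arrays at different times pair the samples: their residuals correlated at 0.21 to 0.57 in 15 pairs. The animal as a random block (consensus correlation 0.19), no batch term, no dim filter, probe set means, repeated quantile normalization, single batches, and leaving out arrays were run as alternatives; the day 14 restriction of FR104.Siro.D14 was added after seeing the data. The fit was also run on simulated data whose arrays varied independently. Those data held no batch effects and no likeness between arrays of 1 animal, so the run cannot speak to either. The members, the pathway and marker lists and the named genes (up to 8 largest changes per direction and comparison, and the ligand and receptor pairs whether called or not) were chosen with earlier results of these data known. Figures were drawn with matplotlib 3.10.9.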

Additional observations from a re-analysis of the deposited data

Results flagged for a closer look

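Within the transplant groups of 4 arrays, each of the 25 members that were called somewhere was examined for an array far from the other 3. In 100 such sets of 4 values, 11 held one, and chance marks about 1 set in 20. The sets share arrays and their genes were chosen by their calls, so 11 cannot be read as an excess over chance. In FR104.Siro.D14 the array of animal 29 (day 22) was low for TNFAIP8L2, at 6.76 against 7.98 to 8.06 in the others, and for TNFRSF10A, at 8.05 against 8.56 to 8.58. In FR104.Siro.F animal 27 was high for TNFAIP8L2, at 8.19 against 7.88 to 7.93. In NoRx.F animal 50 was high for TNFRSF10B, at 5.10 against 4.64 to 4.71, and animal 51 for TNFSF9, at 4.99 against 4.40 to 4.48. In Siro.F animal 18 was high for TNFAIP3, at 11.36 against 10.15 to 10.32, and for TNFSF9, at 4.80 against 4.07 to 4.15. Animal 17 of Siro.F was high for FAS, at 9.13 against 8.51 to 8.59. Animal 16 was low for LTB, at 12.72 against 13.09 to 13.13, and for TNFSF8, at 6.47 against 7.41 to 7.50. Animal 13 was low for TNFRSF1B, at 9.21 against 9.85 to 9.88.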

How the results depend on the processing

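None of the 114 calls reversed its direction under the alternatives below, but further probe sets of some genes, among them TNFAIP2 and TNFRSF25 in NoRx.F and TNFSF10 in FR104.F and FR104.Siro.F, lay on the other side of 0 from the chosen one. Of the 114 calls, 40 remained with each array of either transplant group left out in turn and 74 were lost without some array; 0 were lost without the batch term or with the animal as a block, 8 without the dim filter, 7 after quantile normalization, and 22 of 112 with probe set means.

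The member counts below stand without the share of all genes called, which was not computed for these alternative fits. Whether the counts follow that share was not tested. Without the batch term the members called against Healthy.Control numbered 6 in Auto.D14, 10 in Auto.D36, 4 in Bela.Siro.D14, 8 in FR104.D14 and 14 in FR104.Siro.D14. Against NoRx.F they numbered 9 in Tac.Mtx.F, 2 in Bela.F and 17 in FR104.Siro.F. For NoRx.F there were 4 against Auto.D14 and 9 against Auto.D36, and for Auto.D36 against Auto.D14 there was 1. The replicate block gave 2 for NoRx.F against Auto.D14, 1 for Auto.D36 against Auto.D14 and 1 for FR104.Siro.F against FR104.Siro.D14, and changed no other call count by over 1.5 times. No filter gave 1 in Bela.Siro.D14. Probe set means gave 5 in Bela.Siro.D30, 4 and 2 for Siro.F and Tac.Mtx.F against NoRx.F, and 1 for Auto.D36 against Auto.D14. Quantile normalization gave 1 in Bela.Siro.D14, 2 for NoRx.F against Auto.D14, 1 for Auto.D36 against Auto.D14 and 2 for FR104.Siro.F against FR104.Siro.D14. Without the arrays of high spike-in signal, which leaves fewer samples, there were 1 in Bela.Siro.F, 1 in FR104.D14, 0 in FR104.Siro.D14 and 4 in FR104.Siro.F, 3 for Bela.Siro.F against NoRx.F and 2 for NoRx.F against Auto.D14.

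Within single batches, with fewer samples, batch 1 gave 3 in Siro.F; batch 2 gave 2 in NoRx.F, 4 in Siro.F and 0 for Siro.F against NoRx.F; batch 3 gave 0 in Bela.Siro.D14, 1 in Bela.Siro.F and 1 in Tac.Mtx.D14; and batch 4 gave 5 in FR104.F. With the 2 day 14 arrays alone, chosen after seeing the data, FR104.Siro.D14 had 1 call against Healthy.Control (TNFAIP3, -1.63), and FR104.Siro.F had 0 against it (limma). The cause of these shifts was not tested.

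Leaving out 1 array, the counts against Healthy.Control ran from 1 to 1 in Auto.D14, 4 to 5 in Auto.D36, 1 to 9 in Bela.F (1 without animal 47), 0 to 2, 1 to 3 and 0 to 1 in Bela.Siro.D14, D30 and F, 1 to 6 in FR104.D14 (1 without animal 23), 2 to 7 in FR104.F (2 without animal 22), 1 to 4 in FR104.Siro.D14 (1 without animal 27), 4 to 8 in FR104.Siro.F, 10 to 13 in NoRx.F, 4 to 7 in Siro.F, and 0 to 2, 0 to 1 and 2 to 4 in Tac.Mtx.D14, D30 and F. Against NoRx.F they ran from 4 to 7 in Siro.F, 3 to 7 in Tac.Mtx.F, 0 to 1 in Bela.F, 2 to 7 in Bela.Siro.F, 2 to 7 in FR104.F and 6 to 10 in FR104.Siro.F. For NoRx.F they ran from 0 to 3 against Auto.D14 and 1 to 4 against Auto.D36, and for the later against the earlier samples from 0 to 1 in Auto and in FR104.Siro. Signal near background limits TNF, TNFSF9, TNFRSF21 and TNFAIP6.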
